A study of Mus musculus with 3 samples.

Results

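The translation initiation and elongation factor genes were taken as the protein-coding genes of GENCODE M21 whose symbol is Eif or Eef followed by a digit, which gave 68 of 21951 genes. Of these, 61 held the midpoint of at least 1 H3K36me3 peak, beside 10037 protein-coding genes in all, and 7 had none. H3K36me3 is the histone mark laid down by Setd2 where genes are transcribed. ChIP-seq, the sequencing of DNA bound to chromatin that an antibody pulls down, profiled it in regulatory T (Treg) cells sorted by Foxp3-YFP, a yellow fluorescent reporter of the Treg lineage factor Foxp3. They were isolated out of spleen and large intestine (LI) of unchallenged C57BL/6 mice. Their genotype is Foxp3-YFP in the labels and Foxp3Cre-YFP in the study, an allele in which Foxp3 drives both Cre recombinase and the reporter. Cells of 7 male and 7 female mice were pooled into 1 library per tissue, and the study's methods give a general age range of young adult mice with no separate age for these. No gene was deleted and no agent was given in either group. Because each tissue had 1 library, no difference described here has a replicate check, no p-value was computed, and intervals are 95% counting intervals that take each read as an independent molecule. With coverage taken to be counted in bins of 20 bp, the steps between low values gave 29600000 mapped reads for spleen and 38100000 for LI. The study's methods do not state the bin size.

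Initiation factors bring the initiator tRNA, the mRNA cap and the small ribosomal subunit together and find the start codon. Elongation factors then deliver aminoacyl-tRNAs and move the ribosome along the message. When eIF2 is phosphorylated by one of its kinases, ternary complex formation falls and general initiation drops, while eIF4E-binding proteins hold back cap-dependent initiation when mTORC1 is inactive. Both switches are used by T cells on activation and under nutrient or folding stress. H3K36me3 follows elongating RNA polymerase and usually increases toward the end of a gene.

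Sequences of 4 short peaks are shown to set the bases beside the ratios that the results turn on. From 132 factor gene peaks of at most 300 bp that lay in introns alone, they are the peak of Eif4e3 with the highest LI over spleen ratio, the peak of Eif4e with the lowest, and the peaks with the lowest and the highest GC content. They were picked after the values were seen. Peaks of Eif1a and Eif4ebp3 were left out before this choice, so the 132 peaks and the GC extremes do not cover these genes. Letters are the mm10 reference on the strand of the gene, and capitals mark runs of at least 4 G or C.
Eif4e3, chr6:99644677-99644926, minus strand: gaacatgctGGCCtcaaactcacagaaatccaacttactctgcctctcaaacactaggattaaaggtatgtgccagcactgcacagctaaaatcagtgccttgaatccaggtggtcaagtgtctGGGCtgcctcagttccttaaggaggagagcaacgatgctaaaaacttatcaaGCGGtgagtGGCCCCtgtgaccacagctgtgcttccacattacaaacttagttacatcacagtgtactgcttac
Eif4e, chr3:138546971-138547202, plus strand: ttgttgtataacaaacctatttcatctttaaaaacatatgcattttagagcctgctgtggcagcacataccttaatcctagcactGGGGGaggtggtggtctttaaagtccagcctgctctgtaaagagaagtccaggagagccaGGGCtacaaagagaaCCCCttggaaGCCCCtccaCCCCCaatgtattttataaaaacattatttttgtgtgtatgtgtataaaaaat
Eif3e, chr15:43272045-43272254, minus strand: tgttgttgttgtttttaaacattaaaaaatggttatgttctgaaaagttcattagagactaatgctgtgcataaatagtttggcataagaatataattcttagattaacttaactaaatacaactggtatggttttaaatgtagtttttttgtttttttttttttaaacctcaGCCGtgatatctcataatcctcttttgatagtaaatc
Eif4g2, chr7:111082517-111082716, minus strand: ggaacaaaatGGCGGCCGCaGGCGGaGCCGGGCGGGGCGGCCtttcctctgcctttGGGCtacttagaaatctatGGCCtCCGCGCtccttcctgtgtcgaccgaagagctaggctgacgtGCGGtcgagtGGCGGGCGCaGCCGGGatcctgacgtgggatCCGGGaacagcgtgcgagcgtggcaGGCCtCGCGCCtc
At the Eif4e3 peak spleen had 4.64 RPKM and LI 15.3 RPKM, where RPKM is coverage by reads, per kilobase and corrected for depth. At the Eif4e peak the order was opposite, with 7.27 RPKM for spleen and 1.03 RPKM for LI. Their GC contents were 47.2% and 41.0%. The Eif3e peak, at 25.7% GC, had 7.12 RPKM in spleen and 3.99 RPKM in LI, whereas the Eif4g2 peak, at 67.5% GC, had 5.67 and 10.8 RPKM. Peaks of this size rest on few reads: the SD of the log2 ratio was 0.74 over the 494 factor gene peaks under 1 kb and 0.25 for the other 182.

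The factor genes carried more H3K36me3 per length than most genes with a peak. The level of a gene is given as the mean RPKM over its body, which counts bases outside peaks as 0. The median level of the 61 genes was 9.77 RPKM in spleen and 8.46 RPKM in LI, and that of 9456 protein-coding genes with at least 20 RPKM summed over both libraries was 4.66 and 4.94 RPKM. All 61 genes passed this filter. Peaks covered 63.5% of the body of the median factor gene and 37.4% of the median coding gene. In 45 of 61 factor genes the level was above the median of all coding genes, and 17 of them (27.9%) were among the highest 10% of coding genes. These counts describe the genes and were not tested.

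Gene length moved with the level. Factor genes were shorter, with a median of 18.8 kb against 24.7 kb. Among genes under 10 kb, the 17 factor genes had median levels of 14.8 RPKM in spleen and 15.1 RPKM in LI, and the 1968 coding genes had 6.73 and 7.19 RPKM. Among genes of 10 to 30 kb, the 29 factor genes had 12.1 and 12.3 RPKM against 6.52 and 6.75 RPKM in 3443 coding genes. The 15 factor genes of 30 kb or more had 2.93 RPKM in spleen, beside 2.79 RPKM in 4045 coding genes of that length, and 4.23 RPKM beside 2.87 RPKM in LI.

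Eef2, which encodes the GTPase that translocates the ribosome after each peptide bond, had the highest level of all 9456 coding genes. Its body at chr10:81176631-81182498 was covered whole by 1 peak, with 80.5 RPKM in spleen and 93.1 RPKM in LI. Eif3d, an eIF3 subunit able to bind caps itself, ranked 35 of 9456 with 34.8 and 36.4 RPKM at chr15:77958998-77970813. Eif4a1, the RNA helicase that unwinds the leader of an mRNA, ranked 94 with 30.04 RPKM in spleen and 28.9 RPKM in LI at chr11:69666936-69672423. The start codon selection factor Eif1 followed with 23.9 and 23.5 RPKM. The next 6 genes by level were Eif4a3, Eif3c, Eif2b5, Eif3l, Eif4g2 and Eif2b1, at 18.6 to 22.8 RPKM in spleen and 17.5 to 23.0 RPKM in LI. They included a helicase of the exon junction complex, core eIF3 subunits, a scaffold and the catalytic epsilon subunit of eIF2B.

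At the other end, Eef2k, the kinase that inactivates eEF2, had only 0.11 RPKM over its body in spleen and 0.068 RPKM in LI. Eif4ebp1, the best known inhibitor of eIF4E, had 0.40 and 0.57 RPKM. Peaks covered 0.82% of the body of Eef2k and 5.95% of that of Eif4ebp1.

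**Figure D1:**
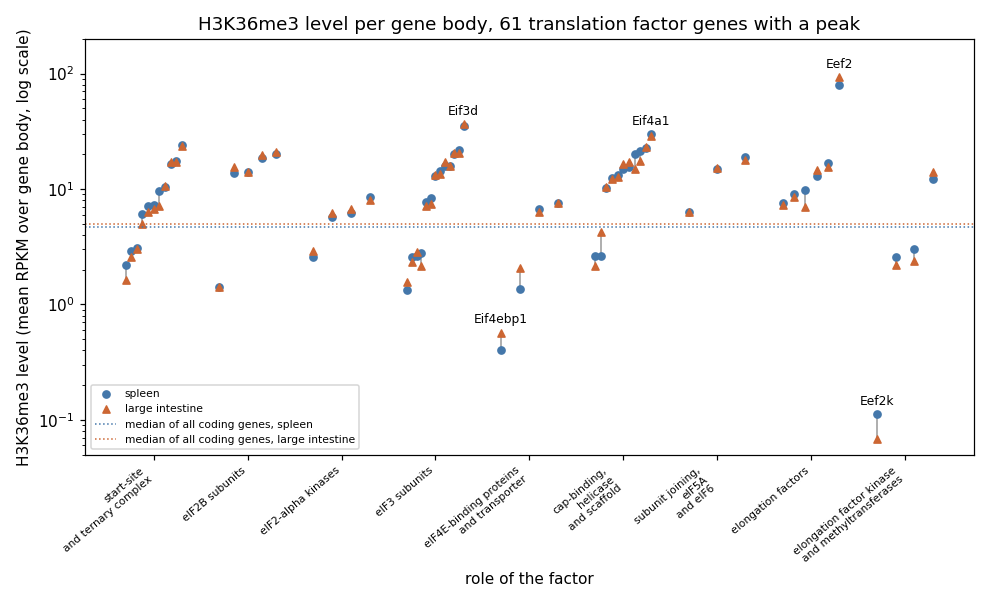
H3K36me3 level of each of the 61 factor genes with a peak, grouped by role along the horizontal axis, as mean RPKM over the gene body on a log axis. Circles are spleen, triangles are LI, lines join the same gene, and dotted lines are the medians of all coding genes (4.66 and 4.94 RPKM). Most genes lay above the dotted lines, Eef2 stood highest at 80.5 and 93.1 RPKM, and Eef2k lowest.

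Of the 7 genes with no peak midpoint in the body, 5 belonged to groups of paralogues whose other members had one. Eif1 and Eif1b, close relatives in start codon selection, both carried the mark, with 10.4 and 10.7 RPKM over the body of Eif1b. Eif5a, the only protein that carries hypusine together with its relative Eif5a2, had 19.1 RPKM in spleen and 17.9 RPKM in LI, and Eif5a2 had no peak. Eef1a1, the carrier of aminoacyl-tRNA, had 7.60 and 7.26 RPKM, and its muscle and neuron counterpart Eef1a2 had no peak. Eif4e1b, an oocyte relative of the cap-binding protein, and Eif3j2, a short near copy of Eif3j1, also had none.

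The gamma subunit of eIF2 is encoded on both sex chromosomes. Eif2s3x on the X chromosome had 7.23 RPKM in spleen and 6.74 RPKM in LI, and its Y-linked copy Eif2s3y had no peak although male mice were pooled. The table held 7 peaks on the Y chromosome in all, 4 of them in a coding gene. The lysine methyltransferase genes Eef1akmt3 and Eef1akmt4 completed the list of 7 without a peak. Genes with near identical copies elsewhere, among them Eif3j1 with Eif3j2, Eef1a1 and Eif4a1, may lose reads in the alignment, so their levels are uncertain.

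Along the gene, the signal of the factors was spread more evenly than usual. The first, middle and last part of the body, each of equal length, held medians of 18.6%, 39.0% and 40.6% of the signal in spleen, and 17.7%, 38.9% and 40.5% in LI. Over all coding genes the spleen medians were 8.33%, 35.3% and 49.2%. The last part held more signal than the first in both libraries in 43 of 61 factor genes and in 83.2% of all coding genes. The values are means per peak, so a gene under 1 wide peak such as Eef2 is even by construction. Eif3e leaned toward its start, with 42.0% of the spleen signal in the first part and 17.3% in the last, whereas Eif4e held 98.1% in the last part. By the annotation at the midpoint, 552 of 676 factor gene peaks (81.7%) lay in introns, 52 in untranslated exon sequence, 51 in coding sequence and 21 in other exons.

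Introns of several factor genes also house small nucleolar RNAs, which guide the chemical modification of ribosomal RNA. Such genes were found in 9 of the 61 bodies, with 5 in Eif4a2 and 3 each in Eif4a1 and Eef1b2. The hosts had median levels of 17.3 RPKM in spleen and 17.0 RPKM in LI, against 8.78 and 7.79 RPKM in the other 52. Hosts such as Eif4a1, Eif4a2 and Eef1b2 were under 10 kb, a length at which factor genes had a median of 14.8 RPKM in spleen. The comparison was not matched for gene length.

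Between the tissues, most factor genes stayed within counting error. For each gene the values of its peaks were summed per library, and the log2 ratio of LI over spleen was taken after each library was scaled to its total. The median ratio was -0.068 over the 61 genes and 0.0045 over all 9456 coding genes. The middle part of the distribution was narrower, from -0.18 to 0.10 (quartiles) against -0.20 to 0.23. Of the 61 genes, 22 had a ratio above 0 and 39 below 0 (63.9%, against 49.3% of all coding genes). The extremes were 0.69 in Eif4e3 and -0.67 in Eef2k.

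No factor gene passed 2-fold in either direction, whereas 3.21% of all coding genes did so toward LI and 1.81% toward spleen. Past a log2 ratio of 0.32, 3 genes were higher in LI (4.92%), Eif4e3, Eif4ebp1 and Eif4ebp3, beside 18.7% of all coding genes. At the same size 9 were higher in spleen (14.8%), which is near the 14.9% of all coding genes. The counting interval of the ratio lay above 0 in 3 genes (4.92%), Eef2, Eif2ak4 and Eif4e3, beside 18.5% of all coding genes. It lay below 0 in 9 genes (14.8%), close to the background of 15.9%, and included 0 in 49. When peaks were weighted by their length, the interval lay below 0 in 22 of 61 genes and above 0 in 2, beside 22.2% and 19.7% of all coding genes. In bulk chromatin, a smaller share of cells with the mark at a gene and less mark per cell cannot be told apart.

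The labelled cell type was checked by its markers. All 8 T and Treg cell markers had peaks, with 1886 RPKM in spleen and 1564 RPKM in LI summed over them. Ikzf2 held most of that sum, and the other 7 had 681 and 713 RPKM. Single markers went both ways. The log2 ratio was -0.55 in Ikzf2, -0.46 in Cd3d, -0.41 in Cd3e, -0.28 in Cd3g and -0.078 in Il2ra. It was 0.13 in Cd4, 0.19 in Foxp3 and 0.59 in Ctla4. The interval lay below 0 in Ikzf2, Cd3e and Cd3g and above 0 in Ctla4. Of the B cell markers, Ms4a1 had no peak, Cd79a had 47.2 RPKM in spleen and 29.8 RPKM in LI, Cd79b had 8.96 and 13.7 RPKM, and Pax5 had 4.05 and 9.91 RPKM. Myeloid markers had a peak in 1 of 5 genes (14.7 and 16.3 RPKM). Of 5 intestinal epithelium markers, Krt8, Krt20 and Cdh1 had no peak, and Epcam and Vil1 summed to 29.9 RPKM in spleen and 59.8 RPKM in LI. Epcam itself had 25.3 and 47.2 RPKM, a ratio of 0.84 (0.23 to 1.46). Their part in the ratios of the factor genes was not tested.

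**Figure D2:**
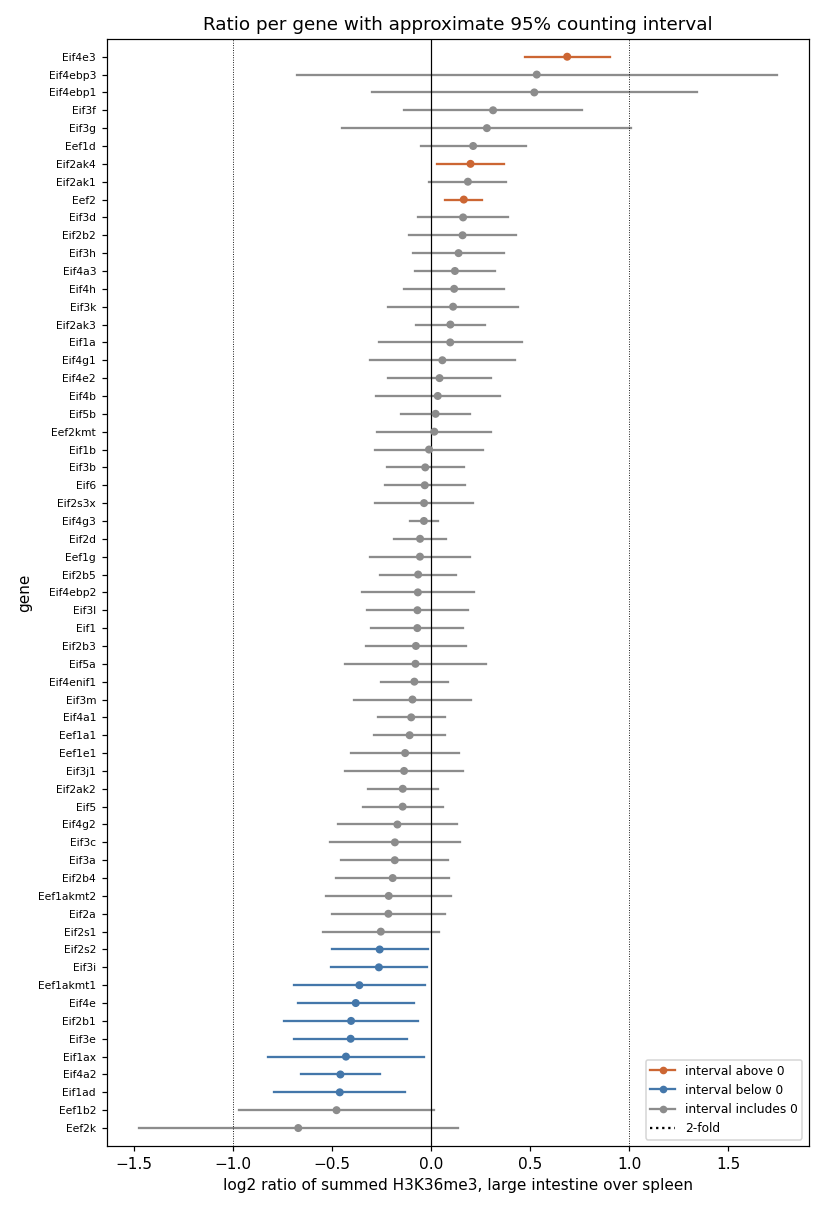
Log2 ratio of summed H3K36me3, LI over spleen, for each of the 61 factor genes (points) with its approximate 95% counting interval (lines). Orange marks the 3 genes whose interval lay above 0, blue the 9 whose interval lay below 0 and grey the other 49, and no point reached the dotted lines at 2-fold.

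Cap recognition held the most separate values. Eif4e encodes the cap-binding protein, Eif4e2 a relative tied to translational repression, and Eif4e3 a relative that binds the cap in a different manner. The 27 peaks of Eif4e3 summed to 203 RPKM for spleen and 337 RPKM for LI, a log2 ratio of 0.69 with an interval of 0.47 to 0.90. The 11 peaks of Eif4e summed to 116 RPKM for spleen and 92.0 RPKM for LI, a ratio of -0.38 (-0.67 to -0.089). The 8 peaks of Eif4e2 gave 89.7 and 95.3 RPKM, with a ratio of 0.041 (-0.22 to 0.30). As summed, the ratio was therefore above 0 for Eif4e3, below 0 for Eif4e and within counting error of 0 for Eif4e2. Weighted by length, the ratios were 0.60 for Eif4e3 and -0.35 for Eif4e. That of Eif4e2 was then -0.14 (-0.255 to -0.020), with the interval below 0. After correction for GC content, Eif4e3 kept 0.64 while the interval of Eif4e, at -0.13, included 0.

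The difference at Eif4e3 was spread along its body, at chr6:99625135-99666771. Of its 27 peaks, 23 were higher in LI, 10 of these past 2-fold, and none was past 2-fold toward spleen. The lowest, median and highest peak had 3.19, 6.80 and 14.2 RPKM in spleen and 6.80, 11.7 and 22.4 RPKM in LI. The peaks began 15.3 kb from the annotated start. The 16 peaks within 32 kb of the start summed to 102 RPKM in spleen and 190.3 RPKM in LI, a ratio of 0.85, and the 11 beyond to 101 and 147 RPKM, a ratio of 0.49.

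All 27 peaks also lay in Gm20696, a coding gene that the annotation runs across this locus, so the signal cannot be given to one of these genes alone. With peaks counted only where no other coding gene lies, Eif4e3 has no value. The neighbouring Foxp1, a transcription factor gene of T cell quiescence, went the other way. Its 159 peaks summed to 1824 RPKM in spleen and 1154 RPKM in LI, a ratio of -0.71 (-0.79 to -0.62). No peak lay in the 102 kb between the genes.

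**Figure D3:**
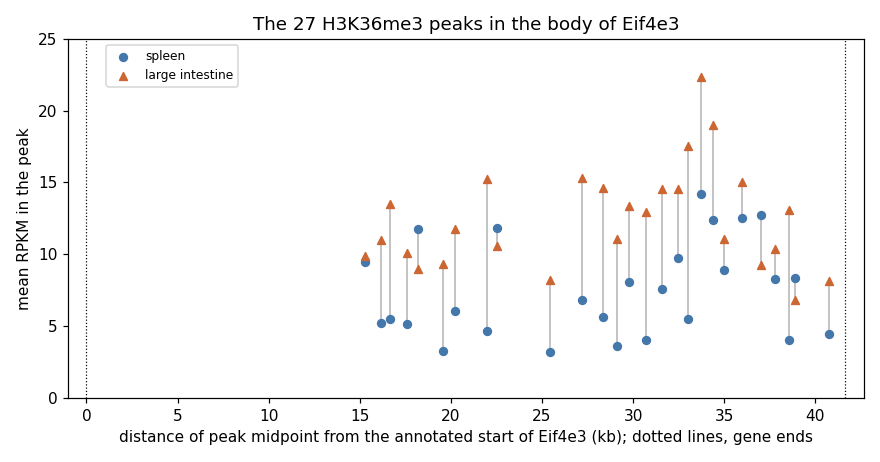
The 27 H3K36me3 peaks of Eif4e3 by the distance of the peak midpoint from the annotated gene start (kb) and by mean RPKM in spleen (circles) and LI (triangles), with lines joining both values of a peak. The LI value was higher in 23 of 27 peaks, and no peak lay within 15 kb of the start.

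Of the inhibitors of eIF4E, Eif4ebp1 and Eif4ebp3 had few reads. Eif4ebp1 had 19.7 RPKM in spleen and 29.3 RPKM in LI over 3 peaks, with a ratio of 0.52 (-0.30 to 1.34). Eif4ebp3, under 1 peak that also lay in a second coding gene, had 8.30 and 12.6 RPKM and a ratio of 0.53 (-0.68 to 1.74). Both passed a log2 ratio of 0.32, and both intervals included 0. Eif4ebp2 had 126 and 124 RPKM and a ratio of -0.068 (-0.35 to 0.21), and the eIF4E transporter Eif4enif1 had 313 and 304 RPKM over 29 peaks, all shared with Drg1.

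Among helicases and scaffolds, Eif4a2 had the lowest ratio. This paralogue of Eif4a1, linked to microRNA silencing, had 23.4 RPKM in spleen and 17.4 RPKM in LI over 1 peak, a ratio of -0.46 (-0.66 to -0.26). Eif4a1, at 35.5 and 34.1 RPKM, had a ratio of -0.10 (-0.27 to 0.068), and Eif4a3, at 82.6 and 92.7 RPKM, one of 0.12 (-0.083 to 0.32). As scaled to the totals, the interval excluded 0 in Eif4a2 alone of these paralogues. After GC correction it excluded 0 in Eif4a2, at -0.28 (-0.48 to -0.090), and in Eif4a1, at -0.20 (-0.38 to -0.030). With peaks given to the nearest transcript start, Eif4a3 had 0.23 (0.048 to 0.41). Eif4a2 fell below the 50 RPKM asked of genes named for their interval and was described as a paralogue. The scaffold Eif4g3, the longest factor gene at 216 kb, had 1819 RPKM in spleen and 1829 RPKM in LI over 152 peaks. Its ratio of -0.038 (-0.11 to 0.032) had the narrowest counting interval of the factor genes. Eif4g1, the main scaffold, had 50.5 and 54.2 RPKM, and Eif4g2, a scaffold without an eIF4E site, 73.9 and 67.6 RPKM, and both intervals included 0. Weighted by length, Eif4g2 had a ratio of -0.37 (-0.50 to -0.24) instead of -0.17. That of Eif4g3 was then -0.065 (-0.11 to -0.018), with the interval below 0.

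The factors of start site recognition and the ternary complex mostly had ratios below 0. Their median ratio was -0.15, with 10 of 11 genes below 0 and 3 intervals below 0, those of Eif1ax, Eif1ad and Eif2s2. Over all coding genes 49.3% of ratios and 15.9% of intervals lay below 0. The peaks of this group had a low median GC content of 43.8%, and after GC correction the intervals of Eif1ax and Eif2s2 included 0. The corrected median of the group was -0.11. Eif1ad, placed in this group by its symbol, had a ratio of -0.46 (-0.79 to -0.13) over 1 peak. It had -0.51 after GC correction, with the interval still below 0. Eif1ax, the X-linked copy of the scanning factor eIF1A, had 110 RPKM in spleen and 84.2 RPKM in LI over 11 peaks, a ratio of -0.43 (-0.83 to -0.035). Its ratio was -0.24 (-0.62 to 0.15) after GC correction and -0.39 (-0.78 to 0.010) without scaling. Its autosomal copy Eif1a had 86.5 and 95.4 RPKM and a ratio of 0.095 (-0.27 to 0.46). The intervals of these copies overlapped. The beta subunit gene of eIF2, Eif2s2, had 132 and 114 RPKM and a ratio of -0.26 (-0.50 to -0.019), with all 12 peaks shared with another coding gene. Its GC content was among the lowest, at 39.2%, and after correction the ratio was 0.038. Eif5, the GTPase activator of eIF2, had 34.0 and 31.7 RPKM and a ratio of -0.15 (-0.35 to 0.057).

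For eIF2B, the exchange factor that recharges eIF2 with GTP, 4 of 5 subunit genes had a ratio below 0 and 1 interval lay below 0. That gene was Eif2b1, the alpha subunit, with 33.6 RPKM in spleen and 26.1 RPKM in LI over 2 peaks, a ratio of -0.41 (-0.74 to -0.069). It rested on the shorter peak: weighted by length the ratio was 0.00018, and its peak of 1 kb or more alone gave 0.058. Eif2b5 had 87.9 and 86.6 RPKM and a ratio of -0.067 (-0.26 to 0.13).

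The 4 kinases of eIF2, each switched on by its own stress, had a median ratio of 0.14. Eif2ak4 (GCN2, which senses uncharged tRNA) had 416 RPKM in spleen and 492 RPKM in LI over 47 peaks, a ratio of 0.20 (0.027 to 0.37), with 33 peaks higher in LI. Eif2ak1 (HRI, which senses haem and mitochondrial stress) had 153 and 180 RPKM and a ratio of 0.18 (-0.010 to 0.38), with 8 of 12 peaks shared with Aimp2 and Ankrd61. Its unshared peaks gave 0.015, and length weighting gave 0.024. Eif2ak3 (PERK, the sensor of unfolded protein in the endoplasmic reticulum) had 208 and 229 RPKM and a ratio of 0.096 (-0.079 to 0.27). Eif2ak2 (PKR, the sensor of double-stranded RNA) had 240 and 224 RPKM and a ratio of -0.14 (-0.32 to 0.032). The interval lay above 0 in Eif2ak4 alone, and it included 0 with length weighting (0.091) and after GC correction (0.14).

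The eIF3 complex, which joins the small subunit to the mRNA, had 13 subunit genes with a peak and a median ratio of -0.070. The intervals of Eif3e and Eif3i lay below 0 and no interval lay above 0. Eif3e had 186 RPKM in spleen and 145 RPKM in LI over 19 peaks, a ratio of -0.41 (-0.69 to -0.12). Eif3i had 80.6 and 69.2 RPKM, with all 4 peaks lower in LI after scaling, and a ratio of -0.26 (-0.51 to -0.023). The Eif3i interval included 0 without scaling (-0.22), with length weighting (-0.17) and in peaks of 1 kb or more (-0.10). Eif3d, at 44.2 and 51.1 RPKM, had a ratio of 0.16 (-0.066 to 0.39), and weighted by length it had -0.022. After GC correction the interval of Eif3e, at -0.20, included 0.

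Among the elongation factors, Eef2 alone had an interval off 0, with a ratio of 0.16 (0.070 to 0.26). Its peak had 56.3% GC, and after GC correction the ratio was -0.068. The subunits of the exchange factor eEF1B varied: Eef1b2 had 27.1 RPKM in spleen and 19.9 RPKM in LI, a ratio of -0.48 (-0.97 to 0.014), and Eef1d had 80.1 and 95.8 RPKM, a ratio of 0.21 (-0.054 to 0.48). Both intervals included 0. Eef1a1 had 25.6 and 24.4 RPKM under 1 peak and a ratio of -0.11 (-0.29 to 0.069). Of the modifying enzymes, the methyltransferase gene Eef1akmt1 had 105 RPKM in spleen and 84.1 RPKM in LI over 9 peaks, a ratio of -0.36 (-0.70 to -0.032), and its strongest peak alone gave 0.086. Eef2k, with 2 peaks, had 26.8 and 17.2 RPKM and a ratio of -0.67 (-1.48 to 0.13). The factors of subunit joining, Eif5b and Eif6, and Eif5a lay between -0.080 and 0.021.

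GC content moved with these ratios. The 676 factor gene peaks were split by GC content into 3 groups of like size. Their median ratio was -0.21 in the lowest group (25.7% to 44.0% GC), -0.0032 in the middle and 0.069 in the highest (48.1% to 72.0%). In peaks of 1 kb or more the same medians were -0.22, 0.017 and 0.0062. Across the 61 genes the ratio and the GC content of the peaks had a Pearson correlation of 0.32 and a Spearman correlation of 0.48, beside a Pearson correlation of 0.33 over all coding genes. Genes of 1 pair of libraries are not independent, so no p is given. After the correction, 12 of the 61 genes changed sign and the median ratio was -0.070. Among the 12 genes with an interval off 0, Eef2 and Eif2s2 changed sign and 10 did not. The Pearson correlation over the 61 genes was -0.27 after the correction. Eef2k, with 2 peaks, had both the highest GC content (64.9%) and the lowest corrected ratio (-1.01). The correlation was not computed without Eef2k, and no Spearman correlation was computed after the correction. Whether the relation turned over across the set was therefore not tested. What part GC content has in the differences was not tested.

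**Figure D4:**
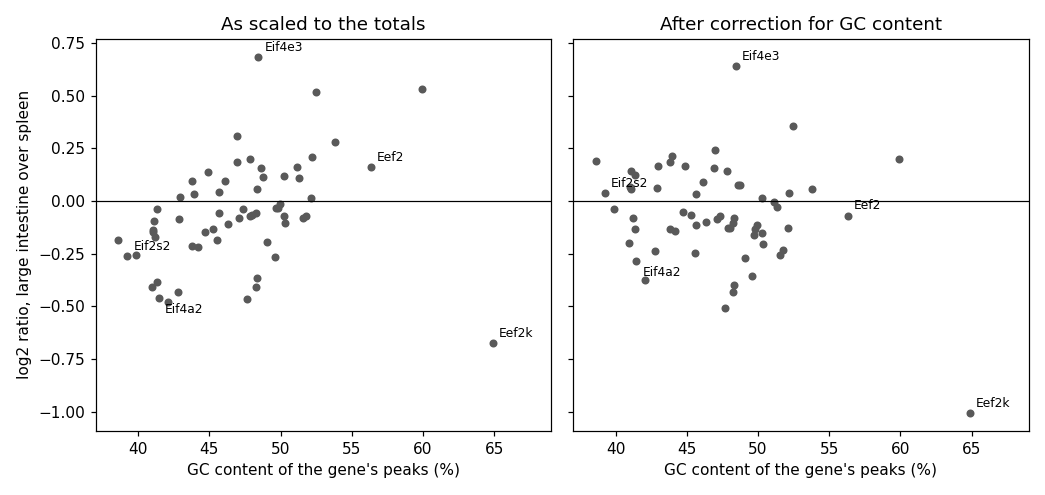
Log2 ratio of LI over spleen (vertical axis) against the GC content of the peaks of each gene (%, horizontal axis) for the 61 factor genes, as scaled to the totals (left) and after correction for GC content (right). Eif4e3 stayed at 0.69 and 0.64, Eif4a2 stayed below 0, and Eef2 went from 0.16 to -0.068.

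A list of 53 other translation genes was set beside the factors. Of the 52 found in the annotation, 44 were tested, 6 had no peak midpoint in the body and 2 were below the filter. With any overlap of peak and gene body counted, 47 were tested. The 44 had median levels of 8.57 RPKM in spleen and 8.22 RPKM in LI and a median ratio of -0.065. Of the 44, 5 had an interval above 0 (11.4%), 9 had one below 0 (20.5%) and no gene was past 2-fold. Over all coding genes 18.5% of intervals lay above 0 and 15.9% below 0. Past 2-fold were 3.21% of all coding genes toward LI and 1.81% toward spleen. The 5 were Dohh of hypusine synthesis, the kinase Mknk2, Secisbp2 of selenocysteine insertion, and Ddit3 and Ppp1r15a of the response to phosphorylated eIF2. Ppp1r15a, which directs the phosphatase that reverses it, had 19.99 RPKM in spleen and 26.7 RPKM in LI, a ratio of 0.37 (0.14 to 0.59). Dohh (0.27) and Mknk2 (0.28) had ratios of -0.073 and -0.061 after GC correction. The 9 were the poly(A)-binding protein partners Paip1, Paip2 and Paip2b, the release factors Etf1 and Gspt1, the eIF4A inhibitor Pdcd4, Larp4, Dph5 and Bzw2. After GC correction the ratio went from -0.28 to -0.018 in Gspt1 and from -0.33 to -0.049 in Paip1. It went from -0.28 to -0.047 in Pdcd4 and from -0.20 to 0.068 in Larp4. In the rest of the 9 the corrected ratio was -0.65 in Bzw2, -0.59 in Paip2b, -0.49 in Dph5, -0.41 in Paip2 and -0.16 in Etf1. In the rest of the 5 it was 0.20 in Ppp1r15a, 0.20 in Secisbp2 and 0.10 in Ddit3. Bzw2, an eIF5 mimic, had 319 and 198 RPKM, a ratio of -0.74 (-0.94 to -0.54). The stress effector gene Atf4 held no peak midpoint.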

How the data were processed

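Per the labels and the study's methods, the authors sequenced single-end reads of 75 nt, aligned them to mm10 (the submitters' processing notes name Bowtie2), called peaks in each tissue with MACS2 (p of 0.01) against input, and merged them into 1 set of 120910 peaks. The deposited values are RPKM coverage averaged over each peak, and no read counts could be recovered, so no count test was run. Tool versions are not given in the sources used here. Per the study's methods the input was chromatin of splenic Treg cells, so LI had no input of its own. The input was not analysed here.

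Peaks were assigned by midpoint to GENCODE M21 gene bodies. A gene given as having no peak held no peak midpoint in its body and could still overlap a peak. Values were summed per gene, 0.5 RPKM was added as a pseudocount, and the log2 ratio of the totals (0.046) was subtracted from each log2 ratio. Genes under 20 RPKM summed over both libraries were left out. Because the scale is log2(value + pseudocount), changes of low genes are understated. Intervals took 1 read per 200 bp, a length that the study does not state, and cover counting error only. At 75 bp, the length of the reads, 8 factor gene intervals lay above 0 and 18 below 0. GC correction subtracted the median ratio of 20 bins of peak GC content. The step between low values gave the depth, with bins taken as 20 bp. Python 3.11.15, numpy 2.4.6, pandas 2.3.3, scipy 1.17.1 and matplotlib 3.10.9 were used, and the ratio code was tested on simulated data.

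The table is labelled as holding raw counts, yet the values were fractional and were treated as RPKM. Genes named were the 10 highest levels, the 6 most extreme interval bounds in each direction among genes of at least 50 RPKM, paralogue groups, the kinases and genes with no peak, and others given as a count's members or as examples were named after their values were seen. A further marker gene is not reported here. The members and gene lists were chosen with earlier results of these data known.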

Additional observations from a re-analysis of the deposited data

How the results depend on the processing

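Of 54 recomputed counts and medians, 45 stayed near their value. Leaving out the filter could not change those of the factor genes, because all of these genes with a peak had passed it. The number of factor genes with an interval above 0 was 3 as reported. It was 1 with the strongest peak of each gene (Eef2), beside 16.1% of all coding genes, and 1 after GC correction (Eif4e3), beside 12.4%. With each read taken to cover 75 bp it was 8, beside 28.7% of all coding genes. The number below 0 was 9 as reported. It was 5 without scaling, beside 12.6% of all coding genes, and 3 of 23 genes at a filter of 200 RPKM, beside 22.7%. It was 22 with peaks weighted by length, beside 22.2%, and 18 with reads of 75 bp, beside 26.9%. Weighting by length kept 7 of the 9, and GC correction 5. The median ratio of the factor genes was below 0 under every alternative, from -0.11 (length weighting) to -0.023 (no scaling). That of the other translation genes was -0.15 at 200 RPKM and 0.0079 with the strongest peak.

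Of 359 recomputed ratios of 34 named genes, some repeat the reported value by construction, as in genes under 1 unshared peak such as Eef2. With these included, 348 of the 359 stayed within their counting error. Those that reversed were Eef1akmt1 (0.086, strongest peak), Eef2 (-0.068, GC correction) and Eif2b1 (0.00018 with length weighting, and 0.058 both with the strongest peak and with peaks of 1 kb or more). Eif4e3 has no call when peaks go to the nearest transcript start, and its strongest peak alone gave 0.59 (-0.044 to 1.22). Scaling choices moved ratios by at most 0.052. The causes of these changes were not tested, save that a higher filter leaves fewer genes and shorter reads narrow every interval. Depth limits genes with few or short peaks such as Eif4ebp3 and Eef2k. No paired analysis was possible because each tissue had 1 library.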
